A study of Mus musculus with 48 samples.

Results

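LIM homeobox genes code for transcription factors that carry a DNA-binding homeodomain and a pair of LIM zinc-finger domains, through which they bind partner proteins such as the Ldb adaptors. In the developing brain each region and neuron type uses its own combination of them, and the combination helps to set cell identity and neurotransmitter. Of 9 LIM homeobox genes listed for the hypothalamus (*Lhx1*, *Lhx2*, *Lhx5*, *Lhx6*, *Lhx8*, *Lhx9*, *Isl1*, *Lmx1a* and *Lmx1b*), the 8 that were present by symbol among the 16510 genes of the count table are described here. *Lmx1b* was not analysed here. The genes were chosen by family, with earlier results of these data known.

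The data were single-cell mRNA counts from the hypothalamus of mouse embryos shortly before birth (E18.5), made to ask how loss of the Polycomb repressor complex 2 changes the formation of hypothalamic neuron subtypes. Control embryos were Eed fl/fl, with both copies of *Eed* flanked by loxP sites, and mutant embryos (Eed-cKO) carried the same alleles together with a single Sox1-Cre allele (Sox1-Cre/+). *Eed* codes for a core subunit of Polycomb repressor complex 2, which places the repressive H3K27me3 mark on histones, and *Sox1* is active in the whole early central nervous system, so the deletion is not limited to the hypothalamus. There were 22 libraries from 6 control embryos (2 female, 4 male) and 26 libraries from 9 Eed-cKO embryos (5 female, 4 male), with 1 to 4 libraries from an embryo. The embryo was the replicate throughout, and p-values measure the spread between these embryos only.

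All 8 genes lie on the mouse autosomes and are protein coding (GRCm38, the build of the counts). *Lhx1*, a gene of mammillary and suprachiasmatic neurons, lies at chr11:84518284-84525535 on the minus strand, and its close relative *Lhx5* at chr5:120431699-120441223 on the plus strand. *Lhx2*, a gene of forebrain progenitors and tanycytes, lies at chr2:38339281-38369733 (plus), and its relative *Lhx9*, known from the hypocretin neurons of the lateral hypothalamus and from the thalamus, at chr1:138825186-138848577 (minus). *Lhx6*, a gene of forebrain GABA neurons, lies at chr2:36081953-36105408 (minus), and its relative *Lhx8*, known from cholinergic neurons of the basal forebrain, at chr3:154306294-154330659 (minus). *Isl1*, a gene of arcuate neurons, lies at chr13:116298281-116309689 (minus), and *Lmx1a*, a gene of the floor plate and of posterior hypothalamic neurons, at chr1:167689237-167848741 (plus). An exon of *Lhx5* is overlapped by the antisense gene Gm27199 and an exon of *Lhx6* by the same-strand Gm27953. Neither has a row of its own in the table, and since the strand used in counting is not given in the sources used here, reads of these pairs cannot be told apart.

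Polycomb repressor complex 2 is known to sit at promoters rich in the dinucleotide CG, and the promoters below are printed because they span the range of CG content among these genes. Each is a RefSeq sequence of 300 bases around the transcription start (GRCm38.p6), printed 5′ to 3′ on the gene's own strand, with every CG in capitals. That of *Isl1* (chr13:116309639-116309938, minus) holds 37 CG, a number reached by 5.58% of 32851 mouse promoters of the same length, and that of *Lhx2* (chr2:38339031-38339330, plus) holds 34, reached by 7.73%. The promoter of *Lhx8* (chr3:154330511-154330810, minus) holds 4, reached by 68.6%, against a median of 7 over all promoters. CG reads the same on both strands, and a count of it in this window is a description only.
Isl1: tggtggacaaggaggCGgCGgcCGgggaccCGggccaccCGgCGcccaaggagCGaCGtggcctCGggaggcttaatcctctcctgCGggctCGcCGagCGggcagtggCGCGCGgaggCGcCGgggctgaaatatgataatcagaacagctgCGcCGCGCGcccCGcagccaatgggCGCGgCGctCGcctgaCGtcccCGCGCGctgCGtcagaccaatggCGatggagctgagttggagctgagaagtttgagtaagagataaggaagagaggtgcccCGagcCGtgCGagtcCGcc
Lhx2: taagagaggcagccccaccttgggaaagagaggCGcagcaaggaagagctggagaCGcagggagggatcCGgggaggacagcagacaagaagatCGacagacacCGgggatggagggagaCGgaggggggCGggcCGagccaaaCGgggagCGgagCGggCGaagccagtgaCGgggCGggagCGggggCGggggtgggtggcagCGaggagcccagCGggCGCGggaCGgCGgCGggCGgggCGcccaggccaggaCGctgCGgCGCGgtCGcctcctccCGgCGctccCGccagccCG
Lhx8: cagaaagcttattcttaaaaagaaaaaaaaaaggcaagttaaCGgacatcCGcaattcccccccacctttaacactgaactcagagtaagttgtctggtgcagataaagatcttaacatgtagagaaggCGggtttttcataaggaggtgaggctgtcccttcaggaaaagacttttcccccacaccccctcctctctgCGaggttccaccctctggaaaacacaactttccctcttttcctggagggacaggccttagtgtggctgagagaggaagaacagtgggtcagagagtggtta
Promoters were matched for 7 of the 8 genes, all but *Lhx5*. The others lay between these extremes, with 31 CG at *Lhx1*, 12 at *Lmx1a*, 6 at *Lhx9*, and 16, 17 and 11 at the alternative promoters of *Lhx6*. The *Lhx9* window (chr1:138842395-138842694, minus) lies inside the gene and not at its annotated 5′ end (138848577), so it need not stand for the whole gene. The other promoter of *Lhx2* held 29.

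The table held 14121 cells, which all passed the authors' stated filters, and cells of vascular, leptomeningeal and immune clusters (347 in control and 481 in Eed-cKO, here called non-neural) were set aside, which left 6839 All-Hypo cells of control and 6454 of Eed-cKO. The median cell held 4768 UMIs (unique molecular identifiers, each standing for 1 captured mRNA) in control and 4425 in Eed-cKO, and embryos summed to 5363119-7487417 and 658175-6299181 UMIs. A total of 101 cell barcodes occurred in more than 1 library (203 cells). *Eed* itself ranged from 29.4 to 33.8 CPM in control and from 19.5 to 27.9 in Eed-cKO, with no overlap (log2 difference -0.45 ± 0.08 SE, edgeR quasi-likelihood test with Benjamini-Hochberg adjustment, adjusted p = 0.000454). A count at the 3′ end need not cover the deleted part, so this is no full check of the labels. By the leading number of the library names, which the labels do not explain, no litter held both genotypes, so litter and genotype cannot be told apart. Markers of other brain regions and tissues were summed as well, and several of these sums moved with genotype. The summed level of 4 thalamic markers (*Gbx2*, *Tcf7l2*, *Rora*, *Lef1*) was 175-773 CPM in control and 121-186 in 8 Eed-cKO embryos, with 510 in Eed-cKO 8. Summed midbrain, hindbrain and spinal cord markers were 10.2-45.1 against 231-412 CPM, and pituitary markers 0.29-2.16 against 6.16-106. Summed endothelial markers were 2.18-5.24 against 4.51-20.9 CPM, 8 of 9 Eed-cKO embryos lying above every control. Telencephalic markers overlapped, at 52.4-138 CPM in control and 81.7-177 in Eed-cKO, as did the sums for blood and for microglia. The All-Hypo cells also held 1036 control and 838 Eed-cKO cells of 4 clusters that were given no name, among them cluster 22, led by *Alas2* and *Cga* (225 cells), and cluster 26, led by *Ttr* and *Kcne2* (61 cells), both with 0 control cells. The part of these in the results below was not tested except where a value is given.

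Levels of each gene were first compared over all hypothalamic cells, as UMIs summed per embryo and scaled by TMM to the total of the embryo (CPM, the rate of a gene's UMIs among all UMIs). In such sums fewer cells of a type and less RNA per cell cannot be told apart. Across all 12545 genes tested, 27.7% differed between genotypes at an adjusted p under 0.05, and of the 8 LIM homeobox genes 2 did, *Lhx2* and *Lhx5*, both higher in Eed-cKO.

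*Lhx2* was the gene whose embryos separated. It was at 15.02 CPM in the lowest control embryo, 24.1 at the median and 35.4 in the highest, against 38.5, 47.5 and 64.8 CPM in Eed-cKO. All 9 Eed-cKO embryos lay above all 6 controls (log2 difference 1.00 ± 0.17, edgeR, adjusted p = 0.000213). *Lhx5* was at 18.4, 19.7 and 26.1 CPM in control and at 15.99, 28.3 and 33.7 in Eed-cKO. For *Lhx5*, 6 of 9 Eed-cKO embryos exceeded every control while Eed-cKO 8 lay below them all, and the log2 difference was 0.44 ± 0.13 (edgeR, adjusted p = 0.0171). The *Lhx5* call was lost with cells thinned to 2000 UMIs (0.39, edgeR, adjusted p = 0.0886) and without cluster 15, described below (0.33, 0.0723). Within neuron-like clusters alone 15.6% of 11934 genes were called. In these clusters, where cluster 0 holds 1527 of the 4665 Eed-cKO cells and clusters 3, 2 and 5 lead in control, the same 2 were called, *Lhx2* with a log2 difference of 0.76 (adjusted p = 0.0035) and *Lhx5* with 0.59 (edgeR, adjusted p = 0.00326).

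The 6 other genes did not pass the test over all hypothalamic cells. *Isl1* was nearly level, at 96.6, 145 and 198 CPM (lowest, median, highest) in control and 98.0, 153 and 177 in Eed-cKO, a log2 difference of 0.00 ± 0.13. *Lmx1a* was at 12.8, 32.7 and 42.0 CPM in control and 18.9, 35.6 and 56.2 in Eed-cKO (log2 difference 0.27 ± 0.20), with wide overlap. *Lhx1* was at 11.1, 25.8 and 45.3 CPM in control and 11.9, 20.5 and 27.1 in Eed-cKO. The 3 highest *Lhx1* values were all controls, and the log2 difference of -0.45 ± 0.24 had an adjusted p of 0.161 (edgeR), or 0.0240 without control 6.

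*Lhx6* and *Lhx8* each had a control embryo far from the rest. *Lhx6* was at 13.6, 20.3 and 53.2 CPM in control and at 10.9, 15.8 and 31.6 in Eed-cKO, the control maximum being control 4 (log2 difference -0.49 ± 0.25, edgeR, adjusted p = 0.152). With every cell thinned to 2000 UMIs the *Lhx6* difference was -0.71 with an adjusted p of 0.0364 (edgeR). *Lhx8* was at 0.90, 7.96 and 31.1 CPM in control, again highest in control 4, and at 7.91, 10.5 and 28.4 in Eed-cKO, highest in Eed-cKO 2. The genotypes overlapped for *Lhx8* (log2 difference 0.19 ± 0.41), though 3 of 6 controls lay below all Eed-cKO embryos.

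*Lhx9* turned on a single embryo and a single cluster. Control embryos were at 6.43, 45.6 and 69.6 CPM of *Lhx9* (lowest, median, highest) and Eed-cKO embryos at 11.4, 15.5 and 90.2. The highest value of all came from Eed-cKO 8, while the other 8 Eed-cKO embryos lay at or below 25.3. The log2 difference was -0.81 ± 0.45 (edgeR, adjusted p = 0.197), and without Eed-cKO 8 it was -1.40 (adjusted p = 0.00434). Cluster 15 was led by *Gbx2* and *Tcf7l2*, genes of thalamic neurons, and by *Lhx9* itself. It held 345 control cells and 26 Eed-cKO cells, all 26 from Eed-cKO 8. This cluster supplied 36.4-86.1% of the *Lhx9* UMIs of each control embryo. Without this cluster the *Lhx9* difference turned to 0.59 (edgeR, adjusted p = 0.25). Since *Lhx9* is a leading gene of cluster 15, leaving the cluster out takes *Lhx9* mostly from control by construction. Values of *Lhx9* without cluster 15, here and below, are descriptions and no test.

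**Figure D1:**
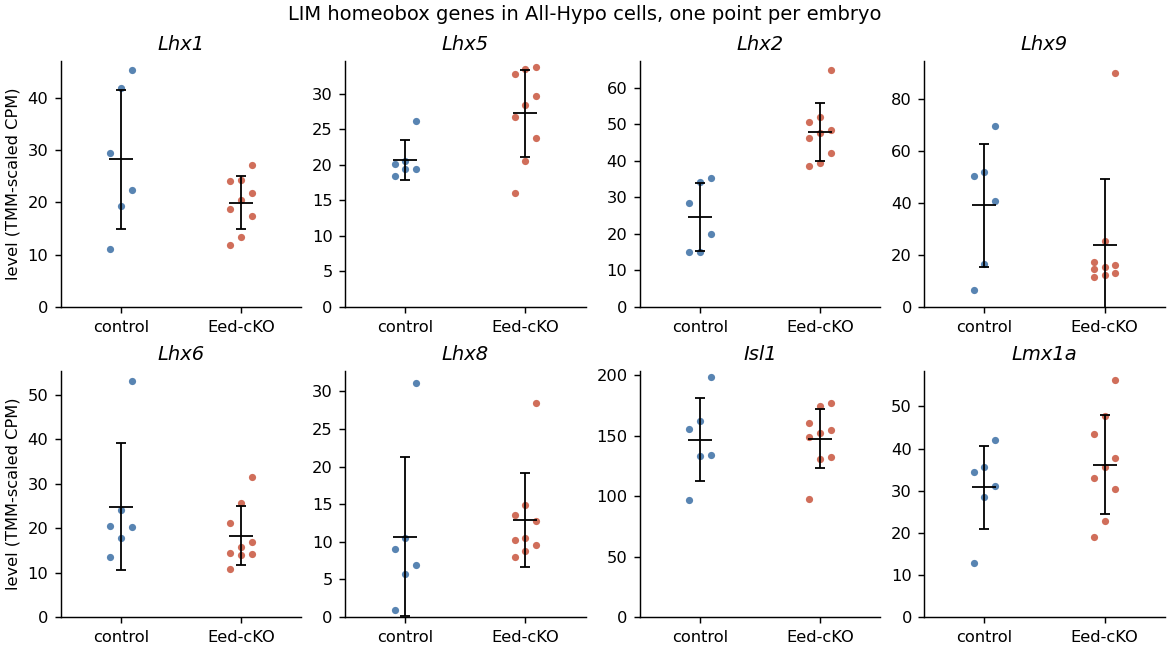
Level of each of 8 LIM homeobox genes over all hypothalamic cells of an embryo, in TMM-scaled CPM (y axis, from 0), by genotype (x axis). Points are embryos (6 control, 9 Eed-cKO) and bars the mean ± SD, cut at 0. The *Lhx2* points of Eed-cKO all lie above those of control, and Eed-cKO 8 stands alone at 90.2 CPM of *Lhx9*.

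The share of positive cells, those holding 1 UMI or more of a gene, was tested across embryos by permuting the genotypes of embryos exactly and two-sidedly, and 4.15% of 12700 genes passed after adjustment. None of the 8 LIM homeobox genes did, and by the unadjusted p *Lhx2* (p = 0.003) and *Lhx8* (p = 0.0154) were under 0.05. *Lhx2*-positive cells made up 5.27, 7.34 and 8.96% of cells in control embryos (lowest, median, highest) and 7.69, 15.4 and 24.8% in Eed-cKO. For *Lhx2*, 8 of 9 Eed-cKO embryos exceeded every control (mean 7.13% ± 1.66 SD, n = 6, against 15.3% ± 5.04, n = 9, exact permutation test, adjusted p = 0.0589), and thinning all cells to 2000 UMIs gave 3.55% against 9.18% (adjusted p = 0.008, exact permutation test). The *Lhx8* share was between 0.27 and 0.97% in 5 controls, 4.67% in control 4, and between 2.33 and 5.39% in Eed-cKO (adjusted p = 0.148, exact permutation test, and 0.0281 without control 4).

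The number of UMIs per positive cell was lower in Eed-cKO for each of the 8 genes. It was 3.99 in control and 1.79 in Eed-cKO for *Lhx8*, 3.35 and 2.22 for *Lhx6*, 3.08 and 1.95 for *Lhx9*, and 3.39 and 2.67 for *Isl1*. Cells with only 1 UMI were 30.9% of *Lhx6*-positive cells in control and 62.0% in Eed-cKO. These are pooled cell values and were not tested. Eed-cKO cells were also shallower, with a median of 4425 UMIs against 4768 in control, and the part of depth was not tested. No share over all genes was made, so the fall is not read as a trait of these 8.

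Most positive cells were neurons. Between 73.3 and 93.5% of the positive cells of each gene in control, and between 60.7 and 91.0% in Eed-cKO, lay in the 15 neuron-like clusters, *Lhx2* being the lowest in both. As a measure of free RNA, non-neural cells (median 3946 UMIs in control, 3708 in Eed-cKO) were positive for *Isl1* in 6.92% and 5.41%, and for the 7 other genes in 0.576-2.31% and 0.416-3.12%. In neuron-like cells (median 5544 and 4822 UMIs) the *Isl1* share was 27.4% in control and 34.6% in Eed-cKO, well above that background.

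*Lhx2* was also found in glial and progenitor cells. Tanycyte-like cells, the radial cells that line the third ventricle, were *Lhx2*-positive in 39.7% of 68 cells of control and in 57.6% of 224 cells of Eed-cKO (24% and 46.6% at 2000 UMIs). Astrocyte-like cells were *Lhx2*-positive in 13.8% and 24.3%, cycling cells in 13.6% and 34.5%, and neuron-like cells in 6.68% and 13.6%. The order was the same at equal depth in all 4 kinds, Eed-cKO above control, with 6.51% and 17.9% in astrocyte-like cells, 6.67% and 14.8% in cycling cells and 3.04% and 6.94% in neuron-like cells. Non-neural cells held *Lhx2* in 1.44% and 3.12%, so the background was higher too. *Lmx1a* was found in ependymal cells (14.6% of 41 and 20.5% of 44 cells) and, in Eed-cKO, in 11.8% of astrocyte-like and 11.5% of cycling cells (6.45% and 0.758% in control). At 2000 UMIs the *Lmx1a* order turned in ependymal cells, with 15.8% in control and 12.2% in Eed-cKO, and was kept in astrocyte-like (4.11% and 6.70%) and cycling cells (0% and 4.70%). These shares pool cells over embryos and were not tested.

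The clusters that held the positive neurons differed between genotypes. These are descriptions, because 5 of the 8 genes were among the variable genes used for clustering. In control, 51.1% of *Lhx9*-positive cells lay in cluster 15, 55.6% of *Lmx1a*-positive cells in cluster 2, led by *Barhl1*, and 24.1% in cluster 12, led by *Neurod6*. *Lhx6*-positive control cells lay mostly in cluster 3, led by *Sp8* (37.0%), and in cluster 13 (34.7%), and 43.3% of *Lhx8*-positive cells lay in cluster 3. *Isl1*-positive control cells were spread over cluster 3 (25.9%), cluster 5, led by *Hmx2* (18.4%), and cluster 7, led by *Agrp* (12.3%), and *Lhx1*-positive cells lay first in cluster 6, led by *Foxb1* (32.3%).

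In Eed-cKO the largest single holder of 7 of the 8 genes was cluster 0, led by *Hoxc10*, *Hoxc13*, *Tfap2b* and *Gata3*, posterior and hindbrain genes not normally used in the hypothalamus. Of its 1544 cells 1527 were Eed-cKO, and these made up 20.5-29.1% of the cells of each Eed-cKO embryo. It held 70.4% of the *Lhx8*-positive Eed-cKO cells, 48.4% of the *Lhx9*-positive, 41.0% of the *Lhx6*-positive, 32.4% of the *Lhx1*-positive, 31.2% of the *Isl1*-positive, 28.3% of the *Lhx5*-positive and 23.2% of the *Lhx2*-positive cells, but 10.7% of the *Lmx1a*-positive cells.

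Neurotransmitter classes were set by the vesicular transporters *Slc17a6* (glutamate) and *Slc32a1* (GABA and glycine), as Glut, GABA or Glut/GABA (both) cells. In control each of the 8 genes differed between the classes. Compared with Glut cells of the same embryos, GABA cells had more *Lhx8* (log2 difference 5.21), *Lhx6* (4.68) and *Isl1* (2.70) and less *Lhx9* (-4.24), *Lmx1a* (-3.79), *Lhx2* (-2.29), *Lhx5* (-1.19) and *Lhx1* (-0.51). All 8 passed (edgeR with the embryo as a block, 7.55% of 13960 genes called), *Lhx1* no longer without control 1 (adjusted p = 0.279) or control 4 (0.104).

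In Eed-cKO the same contrast lay nearer to 0 for 7 of the genes, all but *Lhx1*. *Lhx8* stood at 2.93, *Lhx6* at 2.97, *Isl1* at 1.70, *Lhx9* at -1.40 and *Lhx2* at 0.12 (log2, GABA over Glut), while *Lmx1a* was at -2.81, *Lhx1* at -1.08 and *Lhx5* at -0.98. Of the 8, 7 were called in Eed-cKO (5.68% of 13850 genes called), the exception being *Lhx2*, and *Lhx9* was not called without Eed-cKO 8 (-0.90, edgeR, adjusted p = 0.179). The test of the difference between genotypes called 1.09% of 14918 genes and 5 of the 8 LIM homeobox genes, and at 2000 UMIs per cell it called 2 of the 8.

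By embryo, the direction of most of these contrasts held. *Isl1* and *Lhx6* were higher in GABA cells in 6 of 6 control and 9 of 9 Eed-cKO embryos, *Lhx8* in 6 of 6 and 8 of 9, and *Lhx9* and *Lmx1a* in none of either. *Lhx5* was higher in GABA cells in 0 of 6 control and 1 of 9 Eed-cKO embryos, and *Lhx1*, the least regular in control, in 2 of 6 and 1 of 9. *Lhx2* was higher in GABA cells in 0 of 6 control embryos and in 5 of 9 Eed-cKO embryos. The difference between genotypes in this contrast was 2.39 ± 0.30 for *Lhx2* (edgeR, adjusted p = 2.44e-08), 2.77 ± 0.56 for *Lhx9* (0.000945), -0.99 ± 0.13 for *Isl1* (4.64e-08), -1.65 ± 0.39 for *Lhx6* (0.0105) and -2.20 ± 0.51 for *Lhx8* (0.00796). It was 0.96 for *Lmx1a* (edgeR, adjusted p = 0.607), -0.59 for *Lhx1* (0.529) and 0.21 for *Lhx5* (0.942). The *Lhx6* difference was not called without control 1 (edgeR, adjusted p = 0.0554) or control 4 (0.0866). The *Lhx9* difference drew on 24 control and 23 Eed-cKO UMIs in GABA cells. Control GABA cells were *Lhx9*-positive in 1.23%, against 2.31% of non-neural control cells, and 10.1% of control Glut cells lay in cluster 15. *Lhx6* in Glut cells stood at 2.22 CPM in control and 7.06 in Eed-cKO, the latter at about the level of free RNA.

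**Figure D2:**
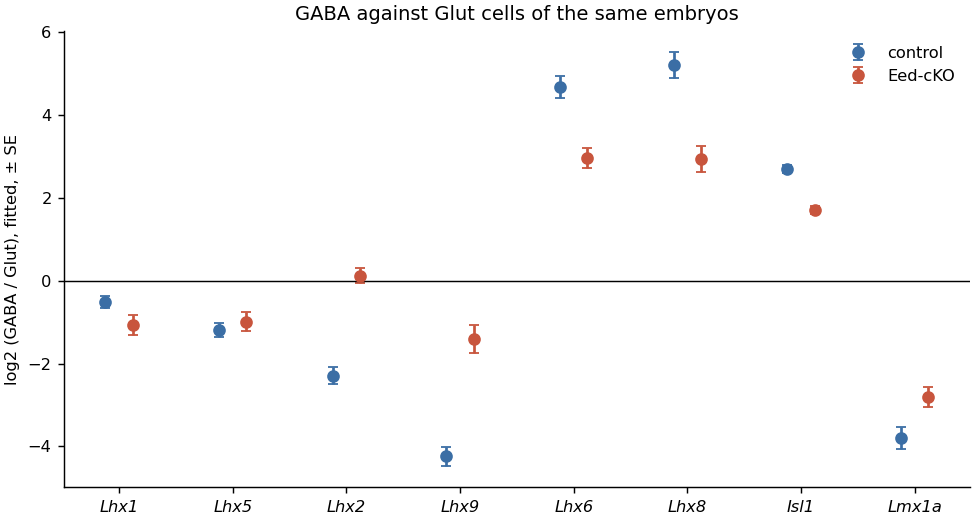
Fitted log2 difference of GABA over Glut cells of the same embryos (y axis) for each of 8 genes (x axis), with SE bars, in control (6 embryos) and Eed-cKO (9 embryos). *Lhx6*, *Lhx8*, *Isl1* and *Lhx9* lie nearer to 0 in Eed-cKO, and *Lhx2* moves from -2.29 to 0.12.

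The cells of a class lay in different clusters in the 2 genotypes. GABA cells lay first in cluster 3 in control (39.1%) and in cluster 0 in Eed-cKO (34.0%), Glut cells in cluster 2 and cluster 0 (15.7%), and Glut/GABA cells in cluster 3 (20.9%) and cluster 0 (61.6%). The part of this in the differences within a class was not tested.

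Read class by class, *Lhx2* rose in GABA cells. Its level there was 1.95, 6.11 and 9.33 CPM in control (lowest, median, highest) and 17.9, 51.9 and 64.4 in Eed-cKO, with every Eed-cKO embryo above every control. The log2 difference of *Lhx2* in GABA cells was 2.77 ± 0.30 (edgeR, adjusted p = 4.93e-09). In Glut cells *Lhx2* was at 13.1-44.9 CPM in control and 25.8-51.0 in Eed-cKO (log2 difference 0.26, edgeR, adjusted p = 0.514). Without cluster 15 the *Lhx2* difference in Glut cells was 0.92. Leaving out that cluster (345 control and 26 Eed-cKO cells) takes cells mostly from control, so this value is a description and no test. GABA cells called 11.1% of 12956 genes and 2 of the 8, the other being *Lhx1*, which fell by 0.86 ± 0.29 on the log2 scale (adjusted p = 0.0494, edgeR). That call on *Lhx1* was lost without any of 11 of the 15 embryos, at adjusted p between 0.0533 and 0.207, and under 4 other settings.

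The 3 genes that were higher in GABA cells in control were called higher in the Glut cells of Eed-cKO, 1 of them at the background. *Isl1* was at 35.2, 47.3 and 64.7 CPM in control Glut cells and 64.2, 98.5 and 126 in those of Eed-cKO, where 8 of 9 embryos exceeded every control (log2 difference 0.93 ± 0.15, edgeR, adjusted p = 0.000129). *Lhx6* was at 0-5.45 CPM in control Glut cells (42 UMIs in all) and at 3.56-13.7 in Eed-cKO (95 UMIs), a log2 difference of 1.61 ± 0.47 (adjusted p = 0.0251, edgeR), and an adjusted p between 0.0512 and 0.0641 without control 2, control 3, Eed-cKO 5 or Eed-cKO 7. The *Lhx6* call was also lost with thinned cells (adjusted p = 0.273, edgeR) and without cluster 15 (0.0533). *Lhx8* was at 0-3.45 CPM in control Glut cells, from 15 UMIs, and at 1.85-21.7 in Eed-cKO, from 57 UMIs (log2 difference 2.27 ± 0.55, edgeR, adjusted p = 0.00744). Beside the background of non-neural cells, Glut cells (median 6293 UMIs in control, 5125 in Eed-cKO) were positive for *Isl1* in 11.5% and 21.1% (6.92% and 5.41% of non-neural cells) and for *Lhx8* in 0.443% and 1.83% (0.576% and 0.416%). For *Lhx6* the Glut shares were 0.665% and 2.57%, with 7.06 CPM in Eed-cKO, and the non-neural shares 2.02% and 2.08%, with 7.20 CPM in Eed-cKO, so *Lhx6* in Eed-cKO Glut cells was at about the level of free RNA and is not read as expression. These 3 were the LIM homeobox genes called in Glut cells, where 11.2% of 14560 genes were.

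*Lhx9* in Glut cells again turned on Eed-cKO 8. It was at 11.04, 66.1 and 116 CPM in control Glut cells and 8.01, 13.3 and 125 in Eed-cKO, the last again Eed-cKO 8. The log2 difference was -1.33 (edgeR, adjusted p = 0.0619), and without Eed-cKO 8 it was -2.21 (adjusted p = 9.74e-05), without control 2 -1.56 (0.0198) and without control 6 -1.50 (0.0377). Of control Glut cells 10.1% lay in cluster 15, of which *Lhx9* is a leading gene. Glut/GABA cells called 4.23% of 13145 genes and 1 of the 8, *Lhx6*, which was at 11.3, 36.2 and 69.5 CPM in control and 3.57, 12.97 and 21.8 in Eed-cKO (log2 difference -1.53 ± 0.30, edgeR, adjusted p = 0.000844). With cells thinned to 2000 UMIs before classes were set the *Lhx6* difference was 0.94 (adjusted p = 0.728).

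Glut/GABA cells themselves were 3.11, 3.72 and 8.28% of cells in control embryos (lowest, median, highest) and 10.1, 17.3 and 23.4% in Eed-cKO, without overlap. Among non-neural cells 2.31% in control and 1.66% in Eed-cKO held both transcripts. The share of Glut/GABA cells also rose among positive cells of nearly every gene, with 92.5% of 12168 genes called and a median gain of 15.2 percentage points. The 6 of 7 LIM homeobox genes called are to be read against that share.

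*Lhx9*-positive cells had the widest difference of the 7. As given above, they lay first in cluster 15 in control and in cluster 0 in Eed-cKO, so cells of different clusters are compared. Their Glut/GABA share was 2.44, 4.40 and 14.2% in control and 28, 39.4 and 57.4% in 8 Eed-cKO embryos with at least 10 such cells, without overlap (mean 5.86% ± 4.41, n = 6, against 41.7% ± 9.97, n = 8, exact permutation test, adjusted p = 0.00113). Means went from 7.62 to 29.3% for *Lhx6*, from 5.17 to 25.4% for *Lhx1*, from 6.54 to 24.7% for *Lhx5*, from 6.59 to 23.8% for *Isl1* and from 6.51 to 18.7% for *Lhx2*. *Lmx1a*-positive cells stood at 7.25% and 13.4% (exact permutation test, p = 0.208) and were the exception. For *Lhx8* only 3 control embryos had 10 positive cells, at 4.08, 10.0 and 15.4%, against 21.4-53.8% in 8 Eed-cKO embryos, and no test was made. At 2000 UMIs per cell the calls were 4 of 7, with 1.13% and 10.1% for *Lhx9*.

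**Figure D3:**
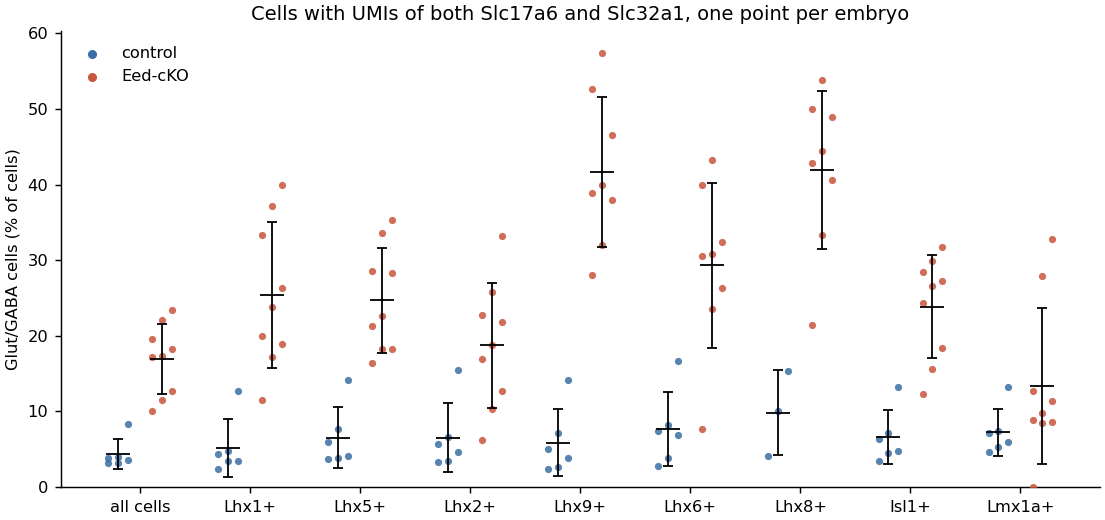
Percentage of Glut/GABA cells (y axis, from 0) among all hypothalamic cells and among the positive cells of each gene (x axis). Points are embryos with at least 10 positive cells, control in blue and Eed-cKO in red, with mean ± SD. For *Lhx9* the highest control embryo is at 14.2% and the lowest Eed-cKO embryo at 28%.

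Co-detection of the genes in single cells was then examined over the 28 pairs. Cells with at least 2 of the 8 genes made up 8.97-12.9% of cells in control embryos and 9.62-27.7% in Eed-cKO (means 10.5% and 17.7%), and 3.64% and 6.30% on average at 2000 UMIs per cell. The number of cells with both genes of a pair was divided by the number expected if the genes were placed independently, which pools cells over embryos and is a description. Over the 28 pairs the median ratio was 0.53 in control and 1.00 in Eed-cKO, and 24 pairs were higher in Eed-cKO. No such ratio was made for pairs of other genes, so the rise is not read as a trait of these 8. At 2000 UMIs the medians were 0.28 and 0.53, with 19 pairs higher, and in neuron-like cells outside cluster 0 they were 0.45 and 0.70, with 18 higher.

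The 3 pairs of close relatives were seen together more often than expected in both genotypes, and less so in Eed-cKO. *Lhx6* and *Lhx8* shared 38 cells in control, 8.30 times the expected number (95% exact Poisson interval 5.87-11.4, counting error only), and 23 cells in Eed-cKO, 2.53 times (1.61-3.80). Control 4 held 24 of the 38 control cells. *Lhx2* and *Lhx9* shared 143 control cells, 4.41 times the expected (3.71-5.19), and 82 Eed-cKO cells, 1.47 times (1.17-1.82). *Lhx1* and *Lhx5* stood at 2.52 (2.107-2.999) and 2.15 (1.79-2.56), with intervals that overlap.

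Pairs listed as normally separate, 8 in all, had higher ratios in Eed-cKO. Their median ratio was 0.51 in control and 1.08 in Eed-cKO, and all 8 were higher in Eed-cKO. At 2000 UMIs the medians of these pairs were 0.30 and 0.63, all 8 lay below 1 in Eed-cKO, and 6 of 8 were higher than in control. The 17 pairs that were neither listed as separate nor close relatives rose likewise, from a median of 0.52 to 0.92, with 16 higher. At 2000 UMIs their medians were 0.14 and 0.41, with 13 higher, so the rise is not particular to the listed pairs. *Isl1* with *Lhx6* went from 31 cells, 0.53 times the expected (0.36-0.75), to 98 cells, 1.25 times (1.02-1.53), or 0.32 (0.15-0.61) and 0.99 (0.64-1.46) at 2000 UMIs, and *Isl1* with *Lhx9* from 0.48 (0.36-0.64) to 0.97 (0.78-1.18). *Lhx1* with *Isl1* stayed below 1 in both, at 0.50 (0.39-0.63) and 0.65 (0.52-0.80). Among the other pairs *Lhx2* and *Lhx8* shared 0 cells in control, where 7.03 were expected (ratio at most 0.53), and 35 in Eed-cKO, where 36.2 were. Of the cells with both *Isl1* and *Lhx6* in Eed-cKO, 50.0% were in cluster 0, and of those with *Isl1* and *Lhx8*, 69.7%.

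**Figure D4:**
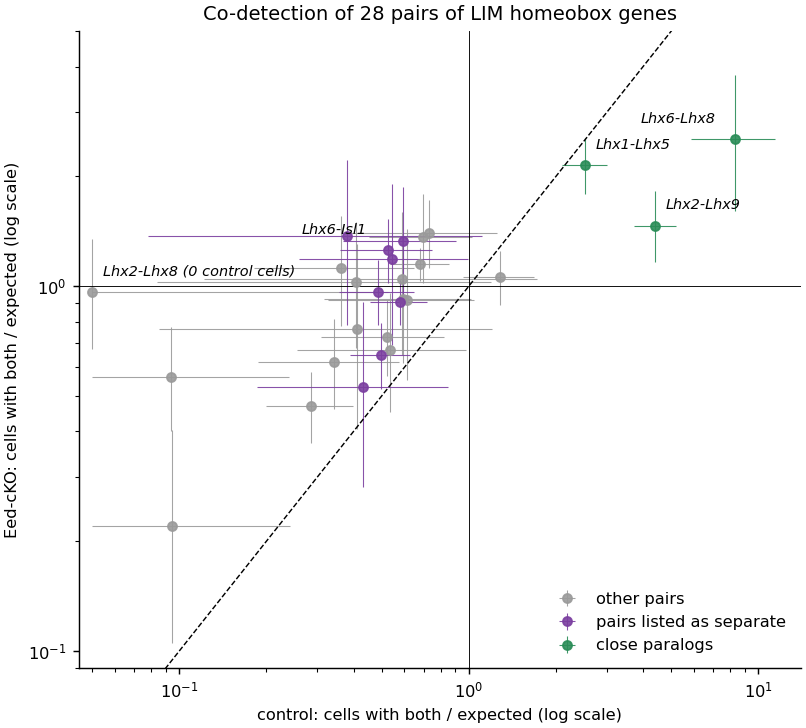
Cells positive for both genes of a pair divided by the number expected under independence, in control (x axis) and Eed-cKO (y axis), both on log scales, for 28 pairs with 95% Poisson intervals for counting error. The dashed line marks equal ratios, and a pair with 0 control cells is drawn at the left edge, at 0.05. Pairs listed as separate lie above the line, as do 16 of the 17 other pairs, and the 3 pairs of close paralogs lie below it.

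Across embryos, the share of cells positive for 1 gene that also held another was tested for 49 ordered pairs, and 2 passed. In *Isl1*-positive cells, *Lhx6* was found in 0.38, 2.32 and 2.96% of the cells in control (lowest, median, highest) and 3.60, 5.02 and 7.34% in Eed-cKO. *Lhx8* was found there in 0.32, 0.70 and 2.37% against 3.11, 4.81 and 10.2%. Neither overlapped between genotypes (exact permutation test, p = 0.0004 and adjusted p = 0.0486 for both), and 0.822% of 12530 genes were called in *Isl1*-positive cells. The calls are near the limit of the test. Both were lost without any single embryo other than Eed-cKO 2, and without Eed-cKO 2 that of *Lhx6*. At 2000 UMIs per cell the shares of *Lhx6* were 0.94% and 2.29% and those of *Lhx8* 0.09% and 3.50%, neither called, and with at least 2 UMIs required the calls were lost as well (adjusted p = 0.869 and 0.795, exact permutation test).

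The other pairs did not pass after adjustment. *Isl1* in *Lhx6*-positive cells was at 3.45-16.7% in control and 24.4-51.4% in Eed-cKO, without overlap (exact permutation test, p = 0.0007, adjusted p = 0.165). *Lhx8* in *Lhx9*-positive cells was at 0-1.27% and 1.33-10.3% (exact permutation test, p = 0.0013, adjusted p = 0.124). *Lhx9* in *Lhx2*-positive cells was at 14.8-40.7% in control and 0-29.03% in Eed-cKO, lower in 8 of 9 Eed-cKO embryos than in any control, where 0.472% of 13129 genes were called (exact permutation test, p = 0.0016, adjusted p = 0.0908). The 29.03% was Eed-cKO 8, and without cluster 15 the means of *Lhx9* in *Lhx2*-positive cells were 12.9% and 7.05% (exact permutation test, p = 0.0783).

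To see what else the positive cells held, UMIs of the positive neuron-like cells of each gene were summed per embryo and tested across all genes, a step added after the other results were known. Cells positive for a gene were compared with cells positive for the same gene, so the sums share the selection. The Eed-cKO sums draw on cluster 0, which held between 10.7% (*Lmx1a*) and 48.4% (*Lhx9*) of all positive cells, and the control sums on the clusters named above. *Lhx8*-positive cells were too few in control to be included. Of 47 tests of a LIM homeobox gene in the cells of another, 16 passed, 13 of them higher in Eed-cKO.

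*Isl1* was the gene most often called in the cells of others. It went from 64.8 to 214 CPM in *Lhx2*-positive cells (log2 difference 1.78 ± 0.21, edgeR, adjusted p = 3.33e-08), where 4.6% of 12201 genes were called, from 55.4 to 150 in *Lhx6*-positive cells (1.53 ± 0.24), where 2.18% of 10643 were, and from 36.1 to 114 in *Lhx9*-positive cells (1.63 ± 0.28), where 4.38% of 11695 were. Without cluster 15 the *Isl1* difference in *Lhx9*-positive cells was 0.83 and not called (edgeR, adjusted p = 0.132). *Isl1* also rose in *Lhx5*-positive cells, from 49.5 to 132 CPM (1.196 ± 0.22), where 2.68% of 12415 genes were called. In *Isl1*-positive cells in turn, where 8.7% of 13514 genes were called, *Lhx2* went from 12.1 to 43.6 CPM (1.96 ± 0.18), *Lhx5* from 10.3 to 23.2 and *Lhx9* from 10.1 to 19.2, the last not called without any of 7 embryos (edgeR, adjusted p between 0.0570 and 0.127).

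The 3 falls were all between close relatives, and each was lost without 1 cluster or 1 embryo. *Lhx9* went from 215 to 50.0 CPM in *Lhx2*-positive cells (log2 difference -2.21 ± 0.37, edgeR, adjusted p = 6.72e-05), *Lhx2* from 116 to 51.2 in *Lhx9*-positive cells (-1.13 ± 0.23), and *Lhx8* from 109 to 33.6 in *Lhx6*-positive cells (-2.02 ± 0.39). Without cluster 15 the first was -0.75 (adjusted p = 0.318, edgeR) and the second -0.51 (0.65). Of the 162 *Lhx8* UMIs in *Lhx6*-positive control cells 90 came from control 4, and without it the difference was -1.31 (edgeR, adjusted p = 0.0697). The share of *Lhx6*-positive cells that held *Lhx8* did not pass, at 3.85, 8.80 and 35.3% in control (highest in control 4) and 0, 9.55 and 23.1% in Eed-cKO (exact permutation test, adjusted p = 0.959). *Lhx5* rose in *Lmx1a*-positive cells from 1.10 to 8.86 CPM (5 and 28 UMIs), where 1.72% of 11972 genes were called, and *Lhx2* in *Lhx1*-positive cells from 7.58 to 18.99 CPM (28 and 56 UMIs), where 2.14% of 11946 were. These 2 calls were lost without any of 5 and of 8 embryos (edgeR, adjusted p up to 0.0847 and 0.197). *Lhx8* was at 0 UMIs in the *Lhx2*-positive control cells and at 50 UMIs (10.9 CPM) in those of Eed-cKO. In *Lhx5*-positive cells it went from 4 to 58 UMIs (1.19 and 14.7 CPM) and *Lmx1a* from 6 to 39 (1.54 and 8.74 CPM).

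**Figure D5:**
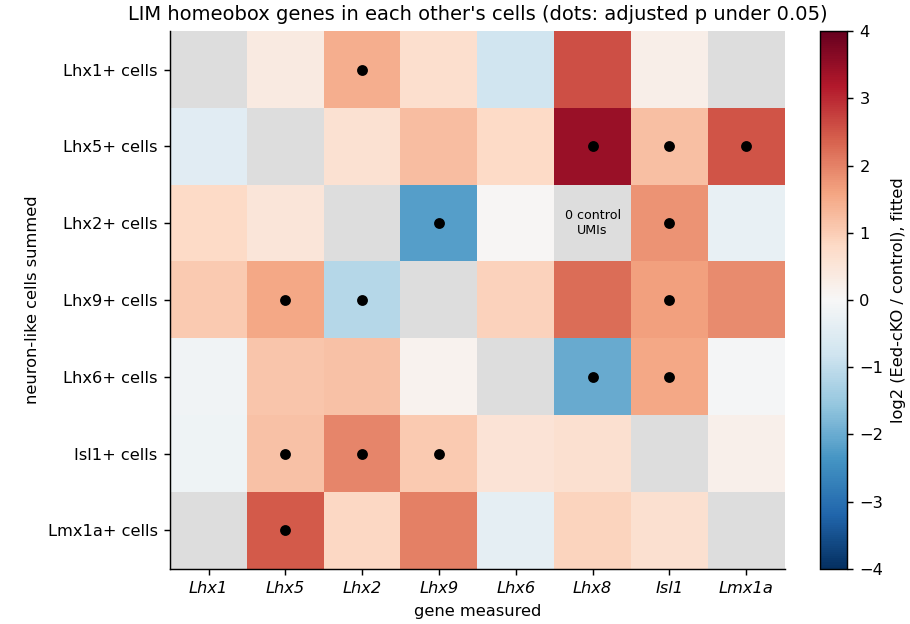
Fitted log2 difference between Eed-cKO and control (colour) of each gene (columns) in the summed neuron-like cells positive for another gene (rows). Dots mark an adjusted p under 0.05, grey squares the gene itself or no test, and a text marks 0 control UMIs. The blue squares with dots are *Lhx9* in *Lhx2* cells, *Lhx2* in *Lhx9* cells and *Lhx8* in *Lhx6* cells.

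Transmitter genes moved in these cells too. *Slc17a6* rose in *Lhx6*-positive cells from 81.2 to 367 CPM (log2 difference 2.06 ± 0.22, edgeR, adjusted p = 2.08e-10) and in *Isl1*-positive cells from 162 to 277. Of all *Lhx6*-positive cells, 6.87% in control and 22.2% in Eed-cKO were Glut cells. In the Glut cells of Eed-cKO *Lhx6* was at about the level of free RNA. The part of free RNA in this and other results of *Lhx6*-positive cells was not tested. *Slc32a1* rose in *Lhx9*-positive cells from 25.1 to 150 CPM (2.35 ± 0.29) and in *Lhx2*-positive cells from 46.6 to 124 (1.48 ± 0.20), as did *Gad1*, the main GABA-synthesising enzyme, from 88.6 to 464 in *Lhx9*-positive cells. *Slc32a1* fell in *Isl1*-positive cells from 204 to 148 CPM (-0.44 ± 0.09).

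Known partner genes of each factor were read from fixed lists. By the share of positive cells that also held the partner, 0 of 61 partner tests passed (exact permutation test across embryos). By edgeR on the summed neuron-like cells 29 did, which were named after their values were seen. Across all genes the share test called 0.472% in *Lhx2*- and 0.822% in *Isl1*-positive cells, so it could call few partners. With edgeR the share of all genes called was between 1.72% (*Lmx1a*) and 8.7% (*Isl1*). In *Isl1*-positive cells 6 of 10 partners were called and 5 of them fell. *Ghrh*, coding for growth hormone releasing hormone, went from 63.9 to 11.5 CPM (log2 difference -2.26 ± 0.62, edgeR, adjusted p = 0.0153), but its level was 12.9 CPM at the control median and 286 in control 5, without which the difference was -0.66 (0.508). Also lower were the feeding peptides *Agrp* from 69.0 to 26.7 and *Npy* from 350 to 133, and the dopamine enzyme *Th* from 41.1 to 17.7. *Nkx2-1*, a gene of the ventral hypothalamus, rose from 97.4 to 169 CPM.

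In *Lhx2*- and *Lhx9*-positive cells *Hcrt*, the hypocretin (orexin) precursor, fell, by a size that rests on control 6. *Hcrt* was at 335 CPM in *Lhx9*-positive control cells and 1.84 in Eed-cKO (887 and 5 UMIs, log2 difference -6.98 ± 1.17, edgeR, adjusted p = 6.55e-05), and at 221 and 1.73 CPM in *Lhx2*-positive cells. By embryo, *Hcrt* in *Lhx9*-positive cells was at 0, 19.5 and 1619 CPM in control (lowest, median, highest) and at 0-7.25 in Eed-cKO, and control 6 gave 671 of the 887 UMIs. Without control 6 the *Hcrt* difference was -4.98 in *Lhx9*-positive cells (77.5 and 1.84 CPM, edgeR, adjusted p = 0.000421) and -2.61 in *Lhx2*-positive cells (11.7 and 1.74 CPM, adjusted p = 0.0456, edgeR). Other partners called in *Lhx2*-positive cells included *Gbx2* (138 to 11.5 CPM) and *Calb2* (382 to 93.5). Over all hypothalamic cells *Hcrt* was at 1.12, 3.90 and 94.995 CPM in control embryos, highest in control 6, and at 0-2.05 in Eed-cKO. Of the 9 partners tested in *Lhx9*-positive cells 7 were called, among them *Gbx2*, from 140 to 13.8 CPM, and *Calb2*, coding for calretinin, from 434 to 102. Without cluster 15 the *Gbx2* difference in *Lhx2*-positive cells was -1.19 (edgeR, adjusted p = 0.536) and that of *Calb2* -0.81 (0.0299). The fall of *Gbx2* moves with cluster 15, which Eed-cKO embryos other than Eed-cKO 8 lacked.

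Cells positive for *Lhx1* or *Lhx5* gained the partners *Tfap2a*, *Tfap2b*, *Pax2* and *Pax8*, genes of hindbrain and spinal cord GABA neurons. In *Lhx1*-positive cells *Tfap2b* was at 0 UMIs in control and 263 UMIs (90.1 CPM) in Eed-cKO, and in *Lhx5*-positive cells it went from 2.41 to 109 CPM (log2 difference 5.59 ± 0.41, edgeR, adjusted p = 2.45e-14). The *Pax8* call in *Lhx5*-positive cells (4 and 29 UMIs) was lost without any of 9 embryos. *Lhx6*-positive cells had 1 of 9 partners called, *Dlx1*, a gene of forebrain GABA neurons, which went from 576 to 253 CPM. Marker genes of other regions rose in the cells of nearly all 7 genes. *Tal1* rose in 7 of 7 cell groups, and *Gata3*, *En2* and *Tfap2a* in 6 of 7 each. *Tfap2b* rose in 5 of 7, *Pax2* in 5 of 6 tested and the pituitary gene *Pitx1* in 5 of 5 tested. The gain of *Tfap2a*, *Tfap2b* and *Pax2* was thus not particular to *Lhx1*- or *Lhx5*-positive cells. *Igf2*, a gene of leptomeningeal cells, was called higher in *Isl1*-, *Lhx2*- and *Lhx9*-positive cells, in the last from 1.32 to 15.1 CPM (4 and 32 UMIs). The *Igf2* call in *Lhx2*-positive cells was lost without any of 11 embryos, and the part of such RNA in these results was not tested.

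Proteins that bind LIM domains were read over all hypothalamic cells from a list of cofactors. *Lmo1*, coding for a LIM-only protein that competes for the Ldb adaptors, was at 18.7, 23.2 and 25.7 CPM in control and 55.2, 70.9 and 96.9 in Eed-cKO, without overlap (log2 difference 1.68 ± 0.12, edgeR, adjusted p = 1.69e-09). *Lmo1* also rose in the positive cells of 7 of 7 LIM homeobox genes. *Lmo4* fell by 0.40 on the log2 scale (adjusted p = 0.00879, edgeR) and in 5 of 7 cell groups, and *Ldb2*, an adaptor that joins LIM homeodomain proteins into complexes, fell by 0.34 (adjusted p = 0.00914, edgeR). *Ldb1*, *Lmo2*, *Lmo3*, *Rlim*, *Ssbp2*, *Ssbp3* and *Ssbp4* did not pass, with log2 differences between -0.23 and 0.29. Of all 12545 genes tested over these cells 27.7% were called, so the number of cofactors called is not read as a result about them. In the cell groups the share of all genes called was between 1.72% (*Lmx1a*) and 8.7% (*Isl1*). *Lhx3* (mean 0.155 and 1.21 CPM) and *Isl2* (0.032 and 2.46 CPM) were below the filter on low values over all cells and were not tested there. In *Isl1*-positive neuron-like cells both were called, *Lhx3* with 0 UMIs in control and 17 in Eed-cKO (edgeR, adjusted p = 0.00931) and *Isl2* with 0 and 18 (adjusted p = 0.00642, edgeR). *Lhx4* was not analysed here.

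The genes whose pattern was most like each factor were found by the correlation of log2(CPM + 1) over 20 control clusters, among 11560 genes, as a description. The clusters share libraries and were made from the same cells. *Lhx1* was closest to its divergent neighbour *Lhx1os* (r = 0.90), then *Onecut2* (0.76) and *Rnf150* (0.73), and *Lmx1a* to *Foxa1* (0.98), *Irx5* and *Irx3* (0.87 each). *Lhx6* was closest to *Sp8* (0.87), *Dlx1as* (0.85) and *Lhx8* (0.83), and *Lhx8* to *Dlx1as* (0.90), *Lhx6* (0.83) and *Dlx6os1* (0.76). *Isl1* was closest to *Dlx5* (0.84), *Hmx3* (0.83) and *Gad2* (0.82), and *Lhx9* to *Gng8* (0.79), *Shox2* (0.73) and *Tcf7l2* (0.72). *Lhx2* was closest to *Nek7* (0.77), *Rras* (0.76) and *Nkd1* (0.74), and *Lhx5* to *Sim1* (0.70), *Bend7* (0.69) and *Uncx* (0.68). *Lhx1os* was at 56.2-122 CPM in control embryos and 77.4-142 in Eed-cKO and was not called (edgeR, adjusted p = 0.181).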

How the data were processed

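The authors processed reads with SureCell RNA Single-Cell v1.2.0, aligning with STAR 2.5.2b to mm10 and adding cell barcodes with SAMtools 1.3, and deposited raw UMI counts per gene and cell, not normalised and with replicates not pooled. They had divided hypothalami into pieces before dissociation, and libraries of an embryo were summed here.

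Cells were scaled to 10000 UMIs, and 2000 variable genes, 30 principal components and 15 neighbours gave 28 Leiden clusters at resolution 1 (Python 3.11.15, scanpy 1.11.5). Clusters were named where at least 3 markers were raised, unless their 10 leading genes held more markers of another type or their UMI counts were far below those of their libraries, which left 4 unnamed. No cells were removed as doublets in the values given first, and as an alternative the 6% with the highest doublet scores were removed. Sums per embryo were fitted with edgeR 4.0.16 in R 4.3.3 (TMM, quasi-likelihood test, Benjamini-Hochberg over all genes tested, threshold 0.05). Genes needed a total of 15 and at least 2 counts in 1 sum, and over all or neuron-like cells a median log-CPM of 1.5. Shares were compared with exact permutation tests over embryos with at least 10 positive cells, whose smallest p is 0.0002 for 15 embryos. Unequal depth was handled by thinning cells to 2000 UMIs, which left out shallower cells (1231 control and 1015 Eed-cKO).

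Members, lists and tests were chosen with earlier results of these data known. All members are named. Of the cofactor list all genes called are named, of the partner lists up to 4 per member by size of difference (for *Isl1* 5, the additional one chosen after its value was seen), and 3 genes per member by likeness. The results of 1 partner gene are not reported here. Intervals cover counting error only. Sequences and coordinates came from RefSeq and GENCODE (GRCm38). Alternatives that removed cluster 15, left out embryos in positive cells, or used edgeR in positive cells or a correlation of detection, were added after the data were seen.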

Additional observations from a re-analysis of the deposited data

Results flagged for a closer look

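In 47 groups of embryos the highest and lowest values were compared with their neighbours, and 11 groups had an embryo standing apart by Dixon's criterion, where chance gives about 1 in 20. For levels over all hypothalamic cells these were *Lhx5* in control 1 (26.1 CPM, next 20.5), *Lhx6* in control 4 (53.2, next 24.1), *Lhx8* in control 4 (31.1, next 10.5) and in Eed-cKO 2 (28.4, next 14.9), and *Lhx9* in Eed-cKO 8 (90.2, next 25.3). Eed-cKO 2 was the smallest embryo by cells and UMIs. For the share of positive cells they were *Lhx8* in control 4 (4.67%, next 0.973%) and in Eed-cKO 4 (5.39%, next 3.72%), and *Lhx9* in Eed-cKO 8 (14.6%, next 6.47%).

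Control 5 stood apart in the Glut/GABA share of positive cells of *Lhx1* (12.7%, next 4.71%), *Lhx2* (15.5%, next 6.56%) and *Lmx1a* (13.2%, next 7.45%). It also had the highest Glut/GABA share of all cells among controls (8.28%) and the library with the most cells (1207). The part of cell number in these values was not tested.

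The GABA over Glut contrast differed between genotypes, by the test of the difference itself (edgeR), for *Lhx9* (2.77 on the log2 scale), *Lhx2* (2.39), *Isl1* (-0.99), *Lhx6* (-1.65) and *Lhx8* (-2.20). Glut/GABA cells, which belong to neither side of the contrast, took a larger share of cells in every Eed-cKO embryo than in any control.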

How the results depend on the processing

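Leaving out 1 embryo at a time gave 1430 values for 104 results, of which 1314 kept direction and side of the threshold, 88 lost a call, 18 gained one and 10 changed sign. Of 363 values under other settings 309 were kept, 32 lost, 11 gained and 11 changed sign. The cause of these changes was not tested. Genes called, of 8, were 2 over all hypothalamic cells, but 1 without cluster 15 and 4 with libraries as samples (which share an embryo). In GABA cells they were 2, but 1 with library size alone, the median log-CPM filter, doublets removed or thinned cells. In Glut/GABA cells they were 1, but 2 with doublets removed and 0 with thinned cells. The Eed-cKO contrast of GABA and Glut called 7, but 4 thinned, and its difference between genotypes 5, but 2 thinned. The share of positive cells called 0, but 1 thinned and 1 without cluster 15. Co-detection called 2 pairs, but 1 with doublets removed, 1 in neuron-like clusters, 1 with at least 2 UMIs, and 0 thinned or by correlation of detection. Partner genes were 0 by share, but 29 by edgeR in neuron-like and 31 in all positive cells.

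Ranges over left-out embryos were 2 to 3 (all cells and neuron-like clusters), 1 to 3 (GABA), 2 to 5 (Glut), 1 to 4 (Glut/GABA), 7 to 8 and 6 to 7 (GABA over Glut in control and Eed-cKO), 4 to 5 (their difference), 0 to 1 (share positive) and 0 to 2 (co-detection). *Isl1* over all cells, near 0, turned to -0.0217 (total-count filter), -0.0367 (doublets removed), -0.11 (thinned), -0.11 (without cluster 15), -0.0080 (relative log expression), -0.0260 (libraries) and -0.0047 (DESeq2), and ranged from -0.0935 to 0.0916 over left-out embryos. *Lhx8* over all cells ranged from -0.0743 to 0.863, and was 1.503 and called with limma-voom and TREAT on libraries. *Lhx6* in Glut/GABA cells turned to 0.94 when thinned, and *Lhx9* without cluster 15 to 0.59 over all cells and 0.81 in neuron-like clusters. *Sox2* in *Lhx9*-positive cells, called at -1.42, was 0.21 without cluster 15.

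Counts over all genes fell when cells were thinned, from 3474 to 2225 over all cells, 1632 to 478 in Glut, 1432 to 390 in GABA and 556 to 77 in Glut/GABA cells, 1054 to 363 and 787 to 270 for GABA over Glut in control and Eed-cKO, and 163 to 64 for the difference. The share test went from 527 to 1290 thinned and 312 in neuron-like cells, and libraries as samples called 5881. With library size alone 2299 genes were higher and 1097 lower, against 1917 and 1557. No paired analysis was possible because the numbers given to libraries and embryos here are only names and no litter held both genotypes.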
